A study of Mus musculus with 6 samples.

Results

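The miR-23, miR-27 and miR-24 miRNAs come from a pair of related gene clusters, each with a miR-23, a miR-27 and a miR-24 hairpin, called the a cluster and the b cluster. Their 9 mature miRNAs studied here (mmu-miR-23a-3p, mmu-miR-27a-3p, mmu-miR-27a-5p and mmu-miR-24-2-5p of the a cluster, mmu-miR-23b-3p, mmu-miR-27b-3p, mmu-miR-27b-5p and mmu-miR-24-1-5p of the b cluster, and mmu-miR-24-3p of both) were picked by name out of 1900 mature names in the count tables, by a rule that uses no measured value. All 9 were counted in every library and passed the filter on low counts. The libraries hold small RNA of kidney cortex from C57BL/6 mice. In 3 of them the animals had eaten a HF/HC/HS/BA diet with tofogliflozin for 8 weeks, and in the other 3 the same diet without the drug. The diet is high in fat and cholesterol and holds bile salt, and the sample titles call it NASH (nonalcoholic steatohepatitis). Tofogliflozin inhibits SGLT2, the glucose transporter of the proximal tubule. Both groups ate the diet, so the comparison shows the drug on top of the diet and not the diet itself. The design gives n = 3 per group, read here as 1 mouse per library; no label says so outright, and p-values measure the spread between these libraries. RNA came from whole cortex, so fewer cells of a type and less miRNA per cell cannot be told apart.

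A miRNA is cut from a hairpin precursor that has a 5p and a 3p arm. One arm is usually kept as the guide that pairs with messenger RNAs, and the other arm is mostly degraded. Pairing rests on the seed, bases 2 to 8 of the mature miRNA. In this family the 3p arms are the known guides. miR-23 is known for repressing glutaminase in human cells, miR-27 for restraining adipocyte differentiation through PPARγ, and miR-24 for acting on cell cycle genes in human cells. Both clusters are described as abundant in endothelial cells, among other cell types.

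The mature sequences show how close some of the a and b copies are. They are taken from RefSeq (build GRCm38.p6, of which mm10 is the same assembly), which matched 8 of the 9 names, all but miR-23b-3p, and are written with the seed in capitals. The guide arms are:
miR-23a-3p: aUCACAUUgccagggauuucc
miR-27a-3p: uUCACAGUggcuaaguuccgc
miR-27b-3p: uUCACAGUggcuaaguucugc
miR-24-3p: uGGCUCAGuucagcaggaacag

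The opposite arms, which tell the a and b hairpins apart, are:
miR-27a-5p: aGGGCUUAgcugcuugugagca
miR-27b-5p: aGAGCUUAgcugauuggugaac
miR-24-2-5p: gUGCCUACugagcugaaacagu
miR-24-1-5p: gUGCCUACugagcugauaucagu

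miR-27a-3p and miR-27b-3p share the seed UCACAGU and differ by 1 substitution, C19U, with positions counted from 1 at the 5′ end and the miR-27a base first. How the authors assigned reads that could come from either was not stated in the labels or headers, so the split between them carries that uncertainty. Their 5p arms differ at 8 positions, 1 of them in the seed (G3A), so miR-27a-5p and miR-27b-5p have different seeds. miR-24-2-5p and miR-24-1-5p share the seed UGCCUAC. They differ in length by 1 base, and compared from the 5′ end without gaps they differ at 5 positions. The first of these is A17U, with the miR-24-2 base first, so the bases before it are the same. miR-23b-3p was not matched, but the mir-23b hairpin holds a stretch that differs from miR-23a-3p by 1 substitution. The uncertainty in how reads were assigned therefore also applies to the miR-23 guides and the miR-24 5p arms. miR-24-3p is the same molecule from both clusters, and its 2 rows in the tables, 1 per hairpin, held identical counts. It therefore cannot be credited to a cluster. Its seed GGCUCAG also occurs in 4 other mouse miRNAs of the RefSeq table (miR-5124b, miR-6369, miR-6410 and miR-6413), each of which had a total of 0 reads over the 6 libraries.

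The hairpins are shown with the arms annotated in RefSeq in capitals, to place those arms in their precursors. miR-23b-3p was not matched there, so the guide arm of mir-23b stays in lower case. The a cluster spans 404 bases of the plus strand of chromosome 8:
mir-23a, chr8:84208518-84208592: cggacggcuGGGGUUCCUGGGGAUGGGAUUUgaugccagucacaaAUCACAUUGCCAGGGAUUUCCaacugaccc
mir-27a, chr8:84208672-84208758: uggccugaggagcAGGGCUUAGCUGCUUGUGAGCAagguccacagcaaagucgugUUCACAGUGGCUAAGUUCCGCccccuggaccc
mir-24-2, chr8:84208815-84208921: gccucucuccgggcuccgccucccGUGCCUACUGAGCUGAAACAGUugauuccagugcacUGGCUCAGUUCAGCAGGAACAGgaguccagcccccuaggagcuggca

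The b cluster spans 792 bases of the plus strand of chromosome 13, with a wider gap before its miR-24 hairpin:
mir-23b, chr13:63300484-63300557: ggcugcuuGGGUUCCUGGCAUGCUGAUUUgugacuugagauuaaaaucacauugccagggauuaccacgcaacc
mir-27b, chr13:63300712-63300784: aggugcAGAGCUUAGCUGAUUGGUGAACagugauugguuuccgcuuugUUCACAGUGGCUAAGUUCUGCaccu
mir-24-1, chr13:63301208-63301275: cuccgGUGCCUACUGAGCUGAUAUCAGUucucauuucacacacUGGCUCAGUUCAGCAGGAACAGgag

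In the GENCODE M21 annotation the 3 hairpins of the b cluster lie inside the protein-coding gene 2010111I01Rik, on its strand. mir-23b is intronic in all 9 transcripts that span it, mir-27b overlaps an exon in 1 of 9 and mir-24-1 in 4 of 11. They also lie in an intron of 1 transcript of Fancc, a DNA repair gene on the opposite strand. In the a cluster, mir-24-2 overlaps the exon of the 1 annotated transcript of the long noncoding RNA Gm26532, and mir-23a and mir-27a overlap no annotated gene other than miRNA genes. On the strand opposite each miR-24 hairpin a miR-3074 hairpin is annotated, and miR-3074-5p is complementary to miR-24-3p over 20 bases.

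**Figure D1:**
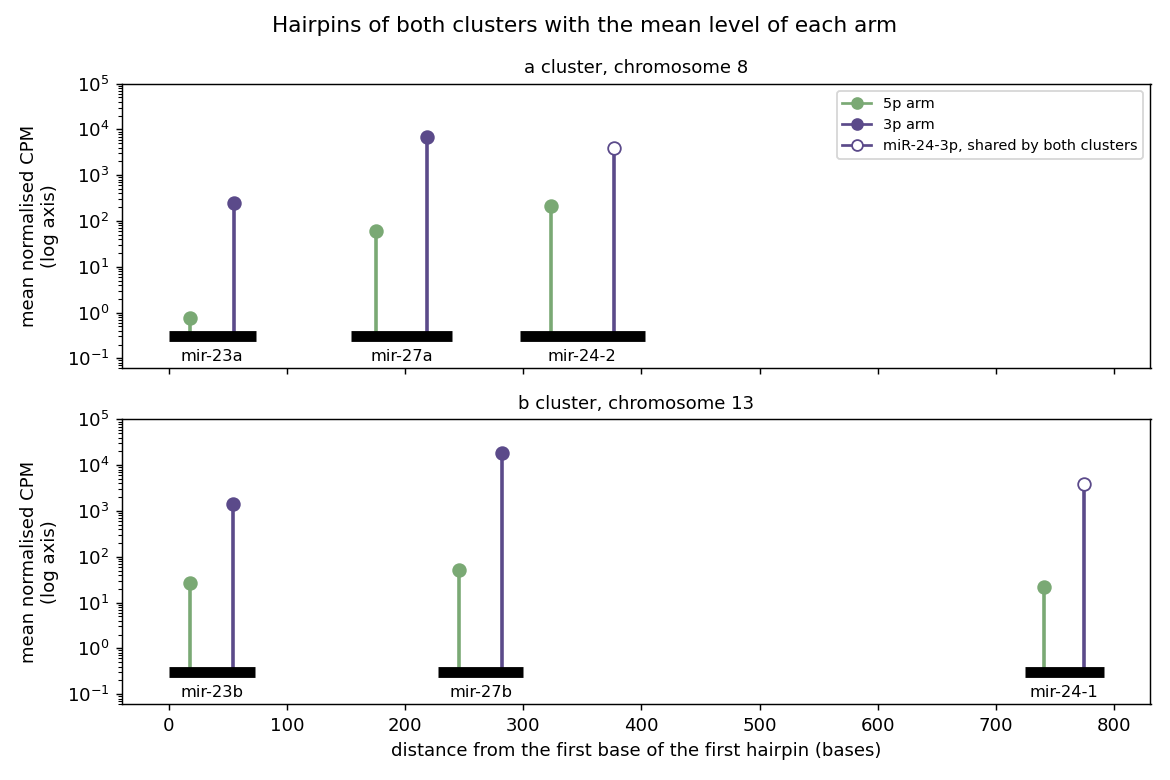
Hairpins of the a cluster (top) and b cluster (bottom) by distance in bases from the first base of the miR-23 hairpin, with stems showing the level of each arm on a log axis (normalised CPM, mean of the 2 group means); stems stand at fixed places within a hairpin, the 5p arm left and the 3p arm right. The a hairpins fit within 404 bases and the b hairpins within 792. In each hairpin the 3p stem stands above the 5p stem, but the miR-24-3p stem shows the same shared level in both clusters.

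Libraries held 8598518 to 22628175 counts with tofogliflozin and 18695091 to 29766679 on the diet alone, over all rows. Taking the largest row of each mature name, the libraries held 6643638 to 17241972 counts with tofogliflozin and 14276384 to 22886200 on the diet alone. Of these, the 9 members took 2.91%, 1.97% and 3.81% in tofogliflozin replicates 1, 2 and 3, and 3.29%, 3.55% and 3.21% in diet-only replicates 1, 2 and 3. Tofogliflozin replicate 2 was the shallowest library and stood apart from the rest, with 16.3% of the 460 tested miRNAs more than 1 log2 unit from the mean of the other 5 libraries, against 2.61% to 6.96% in the others. Values without it are therefore given beside the results that it moved most. The kidney tubule list, with miR-10a-5p and miR-192-5p among its members, summed to 148798 to 172879 normalised CPM with tofogliflozin and 161130 to 171382 on the diet alone. The largest part was miR-10a-5p, with means of 85836 CPM with tofogliflozin and 87757 CPM without. For miR-192-5p the means were 50693 and 52341 CPM. miRNAs of that list were thus abundant in every library.

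miR-27b-3p was the most abundant member and ranked 17 by mean level among 460 tested miRNAs. Levels are normalised CPM, read counts scaled to a common library size with TMM factors, and reads of different sequences can be ligated and amplified with different ease, so an order of levels is an order of reads. miR-27b-3p stood at 17949, 10432 and 22300 CPM in tofogliflozin replicates 1, 2 and 3, against 19270, 21951.5 and 19072 CPM in diet-only replicates 1, 2 and 3. The tofogliflozin mice reached both above and below the diet-only range, with the lowest value in replicate 2. The mean was 16894 ± 6004 CPM with tofogliflozin and 20098 ± 1608 CPM without (SD, n = 3 per group). The log2 fold change of -0.25 ± 0.25 (SE) did not pass edgeR's quasi-likelihood test (adjusted p = 0.877), and leaving out tofogliflozin replicate 2 brought it to 0.0041.

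miR-27a-3p, the a-cluster copy with the same seed, was the second member by level (rank 25). It stood at 6158, 3512 and 7552 CPM with tofogliflozin, against 7637, 9188 and 6865 CPM on the diet alone. A pair of the 3 tofogliflozin mice lay below every diet-only mouse, and replicate 3 lay among them. Its log2 fold change of -0.46 ± 0.26 (SE) was the largest in size among the 9 members (95% interval -1.06 to 0.14). As a fold, this is 0.727, with 95% limits at 0.478 and 1.10. It did not pass edgeR's test (adjusted p = 0.854), with p = 0.2 in the exact permutation test. Without tofogliflozin replicate 2 the value was -0.20 (adjusted p = 0.915), and without tofogliflozin replicate 3 it was -0.69 (adjusted p = 0.268).

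miR-24-3p (rank 31), a count that both clusters share, stood at 3669, 2785 and 4654 CPM with tofogliflozin, against 4565, 4058 and 3799 CPM on the diet alone. The groups overlapped, with the highest and the lowest value both in tofogliflozin mice. Its log2 fold change was -0.16 ± 0.19 (SE; adjusted p = 0.877 by edgeR) and 0.0097 without tofogliflozin replicate 2.

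The miR-23 guides had fewer reads than the miR-27 guide of the same cluster in each library. miR-23b-3p (rank 54) stood at 1331, 2286 and 1141 CPM with tofogliflozin, against 1043, 1237 and 1409 CPM on the diet alone. In tofogliflozin replicate 2, where miR-27b-3p was lowest, miR-23b-3p was highest. By edgeR it differed by 0.37 ± 0.26 on the log2 scale (SE; 95% interval -0.23 to 0.96; adjusted p = 0.859), and by 0.0096 without that library.

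miR-23a-3p (rank 105) stood at 220.01, 216 and 330.1 CPM with tofogliflozin, against 219.8, 283 and 239 CPM on the diet alone. Values overlapped, and the highest was in tofogliflozin replicate 3. Its log2 fold change was 0.05 ± 0.20 (SE; adjusted p = 0.984 by edgeR), and 0.16 without tofogliflozin replicate 2.

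**Figure D2:**
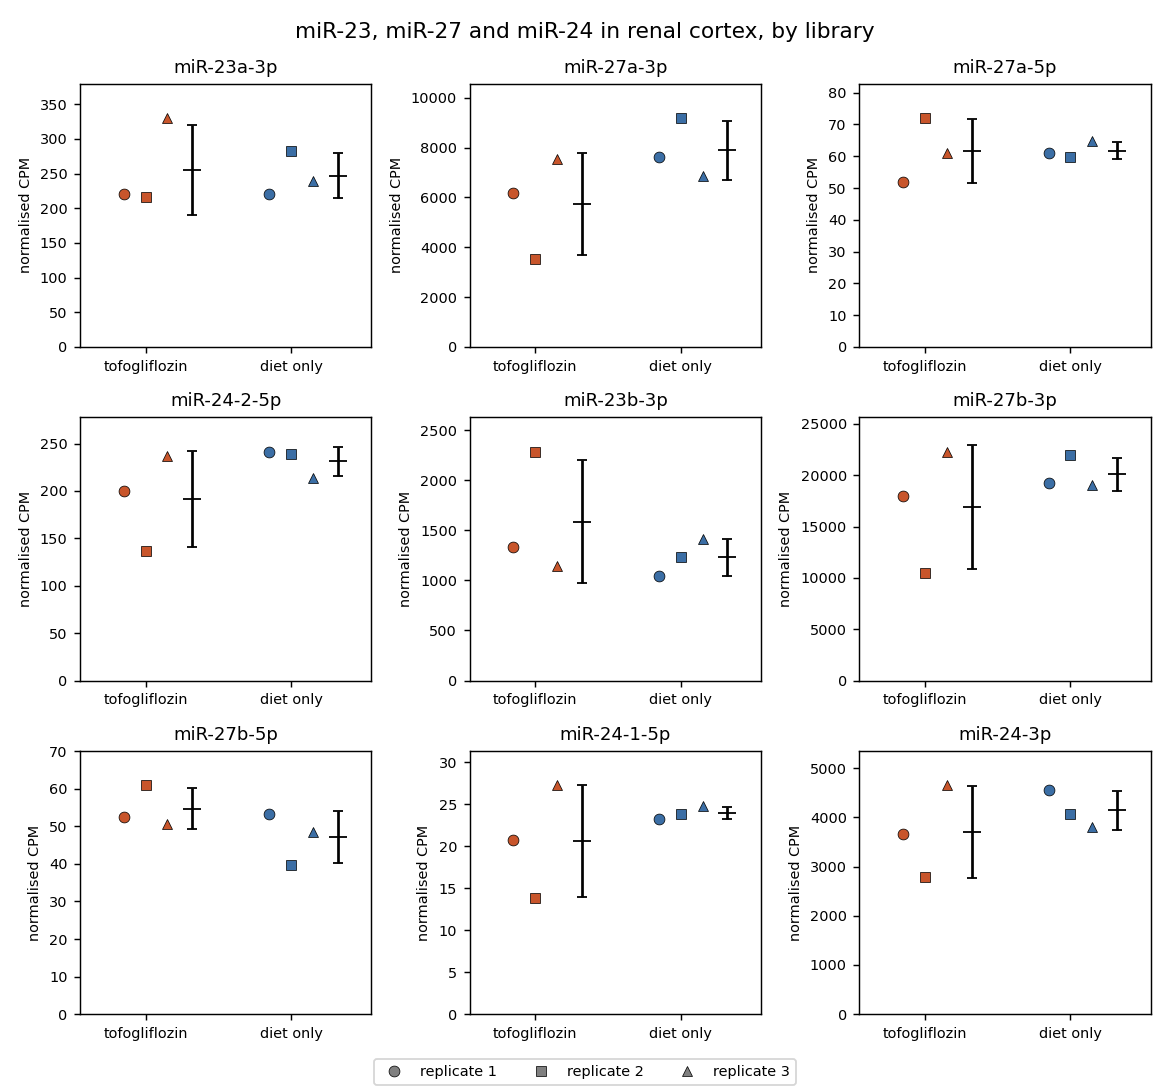
Normalised CPM of the 9 members in each library, tofogliflozin left and diet only right, with 1 symbol per mouse (circle, square and triangle for replicates 1, 2 and 3) and a bar for the mean and SD of 3 mice; each axis starts at 0. Tofogliflozin replicate 2 (square) has the lowest miR-27a-3p, miR-27b-3p and miR-24-3p and the highest miR-23b-3p, and the groups overlap in every panel.

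Each 5p arm had fewer reads than the 3p miRNA of its hairpin, which for the miR-24 hairpins is the shared miR-24-3p count. miR-24-2-5p of the a cluster (rank 111) stood at 200.4, 137 and 237 CPM with tofogliflozin, against 242, 239 and 214 CPM on the diet alone. Its low value again came from tofogliflozin replicate 2. The log2 fold change was -0.27 ± 0.20 (SE; adjusted p = 0.859 by edgeR), and -0.08 without that library. miR-24-1-5p of the b cluster (rank 202), the least abundant member, had 20.7, 13.9 and 27.3 CPM with tofogliflozin and 23.2, 23.8 and 24.8 CPM on the diet alone, with a log2 fold change of -0.21 ± 0.25 (SE) that was 0.0065 without tofogliflozin replicate 2.

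The 5p arms of miR-27 were close in level. miR-27a-5p (rank 151) averaged 61.7 ± 10.04 CPM with tofogliflozin and 61.8 ± 2.61 CPM on the diet alone (SD, n = 3 per group). Its log2 fold change was -0.0041 ± 0.17 (SE; 95% interval -0.40 to 0.39; adjusted p = 0.996 by edgeR), and -0.13 without tofogliflozin replicate 2. miR-27b-5p (rank 164) averaged 54.8 ± 5.48 CPM with tofogliflozin and 47.2 ± 6.81 CPM on the diet alone (SD, n = 3 per group). Its log2 fold change was 0.21 ± 0.17 (SE; adjusted p = 0.877 by edgeR), and 0.13 without that library. In tofogliflozin replicate 2 both 5p arms were at their highest, 72.03 CPM for miR-27a-5p and 61.0 CPM for miR-27b-5p, while both 3p arms of the same hairpins were at their lowest.

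None of the 9 members passed an adjusted p of 0.05 in edgeR's quasi-likelihood test over all 6 libraries. The same test called 0% of the 460 miRNAs tested, and at an unadjusted p under 0.05 it gave 0 of the 9 members and 5.0% of all tested miRNAs. DESeq2 and limma-voom also called 0 members. Groups overlapped for all 9 members, while they did not overlap for 12.0% of all tested miRNAs (tofogliflozin lower in 6.96% and higher in 5.0%). Of the members 3 were above 0 and 6 below, with a median log2 fold change of -0.16, against a median of -0.0052 over all tested miRNAs. Without tofogliflozin replicate 2, 6 members were above 0 and 3 below, and the median was 0.0065. Without tofogliflozin replicate 3, 4 of the 9 had an unadjusted p under 0.05 (miR-27a-3p, miR-24-2-5p and miR-27b-3p lower, miR-23b-3p higher, with 0 past the adjusted threshold by edgeR), as had 75 of 476 miRNAs in that fit. That fit leaves replicate 2 as 1 of only 2 tofogliflozin mice.

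**Figure D3:**
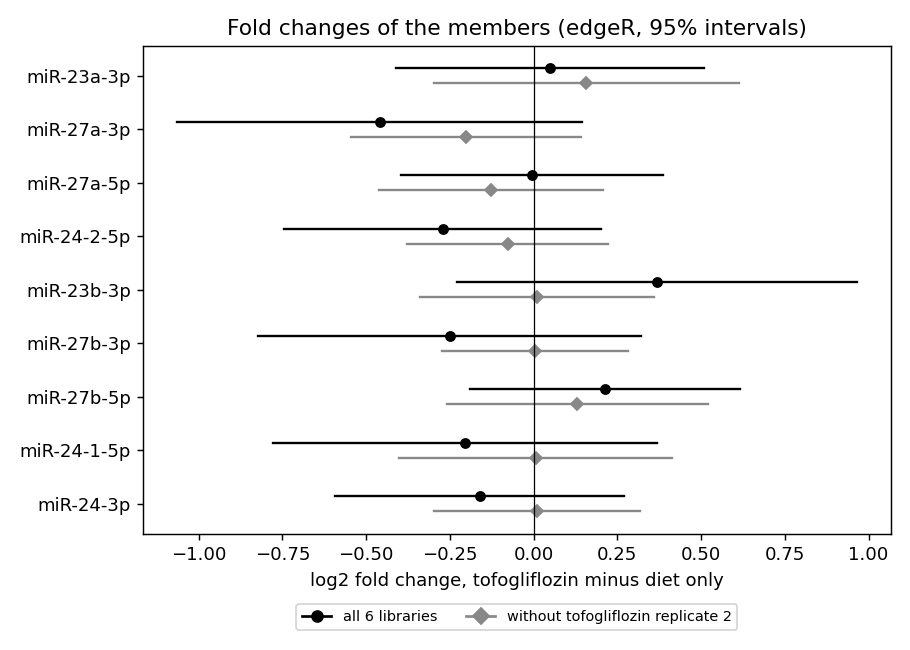
Log2 fold change of each member, tofogliflozin minus diet only, with 95% intervals from edgeR, for all 6 libraries (black circles) and without tofogliflozin replicate 2 (grey diamonds). Every interval crosses 0, and miR-23b-3p, miR-27b-3p, miR-24-1-5p and miR-24-3p come to within 0.01 of 0 without that library.

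Tofogliflozin replicate 2 had a large part in these values. Its log2 CPM minus the mean of the other 5 libraries was -1.08 for miR-27a-3p, -0.94 for miR-27b-3p, -0.78 for miR-24-1-5p, -0.72 for miR-24-2-5p, -0.57 for miR-24-3p and -0.24 for miR-23a-3p. It was higher by 0.90 for miR-23b-3p, 0.32 for miR-27b-5p and 0.27 for miR-27a-5p. In the same library the smooth muscle and pericyte list summed to 32064 CPM, against 52899 to 58875 CPM in the other 5. Nearly all of that sum was miR-143-3p (31421 CPM), and its members did not move together. miR-143-3p and miR-145a-3p (143 CPM) were at their lowest in tofogliflozin replicate 2, but miR-145a-5p (423 CPM) and miR-143-5p (64.9 CPM) were at their highest. The liver miRNA miR-122-5p was at 245 CPM there, against 40.7 to 78.6 CPM in the other 5, and the erythroid list at 449.9 CPM, against 91.1 to 325 CPM. That erythroid sum holds both miR-486-5p and miR-3107-5p, which had near-equal mean levels. The part of cell content, depth or RNA quality in the members' values was not tested.

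The a and b clusters differed in reads in opposite directions for different arms. Different sequences can be ligated and amplified with different ease, and how reads were assigned was not stated. The sign-flip tests of these ratios therefore describe reads, not molecules. For the guides, the b copy was higher in each of the 6 libraries. miR-23b-3p had 6.05, 10.6 and 3.46 reads per read of miR-23a-3p with tofogliflozin, against 4.74, 4.37 and 5.90 on the diet alone. The log2 ratio of miR-23a-3p to miR-23b-3p was -2.45 ± 0.55 (SD, n = 6 libraries), below 0 in 6 of 6 (exact sign-flip permutation p = 0.0312, the smallest that 6 libraries allow; adjusted p = 0.0417 over 4 pairs).

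For miR-27 the ratio was much steadier. miR-27b-3p had 2.91, 2.97 and 2.95 reads per read of miR-27a-3p with tofogliflozin, against 2.52, 2.39 and 2.78 on the diet alone. Over all libraries the log2 ratio of miR-27a-3p to miR-27b-3p was -1.46 ± 0.13 (SD, n = 6 libraries), below 0 in 6 of 6 (exact sign-flip permutation p = 0.0312; adjusted p = 0.0417 over 4 pairs).

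For the miR-24 5p arms the order was turned round. miR-24-2-5p of the a cluster had 9.68, 9.86 and 8.71 reads per read of miR-24-1-5p of the b cluster with tofogliflozin, against 10.4, 10.02 and 8.63 on the diet alone. The log2 ratio was 3.25 ± 0.11 (SD, n = 6 libraries), above 0 in 6 of 6 (exact sign-flip permutation p = 0.0312; adjusted p = 0.0417 over 4 pairs). Since miR-24-3p is shared, these 5p arms are the counts that tell the miR-24 hairpins apart. How reads that could come from either 5p arm were assigned was not stated. For the miR-27 5p arms the a copy was higher in 5 of 6 libraries, with a log2 ratio of 0.28 ± 0.20 (SD, n = 6 libraries) that did not pass (exact sign-flip permutation p = 0.0625; adjusted p = 0.0625 over 4 pairs).

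With tofogliflozin the share of the a copy in the miR-27 guides was lower in every mouse than in any diet-only mouse. Reads of miR-27a-3p per read of miR-27b-3p were 0.343, 0.337 and 0.339 with tofogliflozin, against 0.396, 0.419 and 0.360 on the diet alone. The 3 tofogliflozin mice lay close together, and tofogliflozin replicate 2 lay with the others in spite of its low level of both miRNAs. The log2 ratio was -1.56 ± 0.014 with tofogliflozin and -1.36 ± 0.11 on the diet alone (SD, n = 3 each), a difference of -0.20. In the exact permutation test p was 0.1, and no smaller value is possible with 3 libraries in each group. Adjusted over 4 pairs it was 0.4, so the difference did not pass. Without tofogliflozin replicate 2 the difference was -0.20. Groups did not overlap for this 1 of the 4 a-to-b ratios, and over all ratios of 2 tested miRNAs 11.1% had groups that did not overlap.

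The other 3 ratios of a to b overlapped between the groups. The differences in log2 ratio were -0.28 for the miR-23 guides (exact permutation p = 0.6), -0.23 for the miR-27 5p arms (exact permutation p = 0.3) and -0.04 for the miR-24 5p arms (exact permutation p = 0.6). Leaving out tofogliflozin replicate 2, the miR-23 difference became 0.12 and that of the miR-24 5p arms -0.07.

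**Figure D4:**
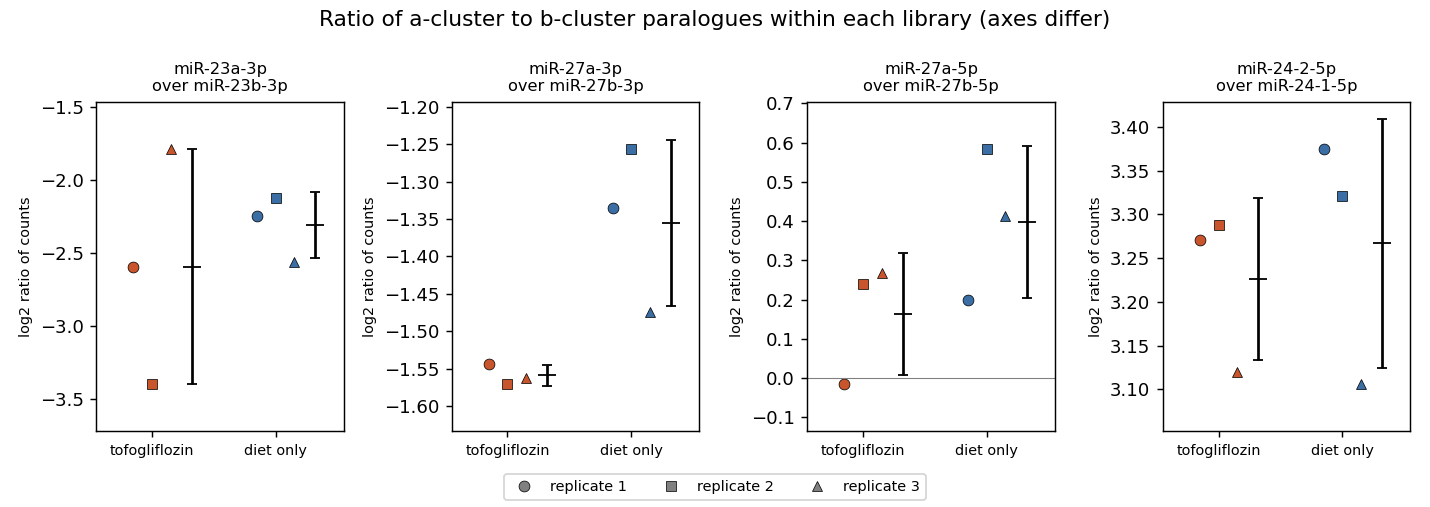
Log2 ratio of a-cluster to b-cluster counts for 4 paralogous pairs, 1 symbol per library, tofogliflozin left and diet only right, with the mean and SD of 3 mice beside them; the 4 axes differ. The miR-27a-3p to miR-27b-3p ratio is the single panel in which the groups do not overlap, at -1.57 to -1.54 with tofogliflozin and -1.47 to -1.26 on the diet alone.

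Ratios of members within a cluster were looked at after the data were seen. Reads of miR-27a-3p per read of miR-23a-3p were 28.0, 16.2 and 22.9 with tofogliflozin, against 34.7, 32.5 and 28.8 on the diet alone, and did not overlap. The difference in log2 ratio was -0.55 (exact permutation p = 0.1; adjusted p = 0.6 over 6 ratios), and -0.33 without tofogliflozin replicate 2. In the b cluster, miR-27b-3p had 13.5, 4.56 and 19.5 reads per read of miR-23b-3p with tofogliflozin, against 18.5, 17.8 and 13.5 on the diet alone. The groups overlapped, and tofogliflozin replicate 2 was far below the other mice. The ratio of miR-24-1-5p to miR-27b-3p was the steadiest within a cluster, with 752 to 867 reads of miR-27b-3p per read of miR-24-1-5p with tofogliflozin and 770.4 to 921 on the diet alone. Groups of 1 of these 6 ratios did not overlap, against the same 11.1% of all ratios.

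Among themselves the members had profiles that followed the clusters for some pairs and not for others. Taking the root mean square difference of log2 CPM centred over the 6 libraries, miR-27a-3p lay 0.12 from miR-27b-3p of the other cluster but 0.37 from miR-23a-3p of its own. The miR-27 guides differ by 1 substitution, and the part of read assignment in their likeness was not tested. miR-27b-3p lay 0.10 from miR-24-1-5p of its cluster and 0.72 from miR-23b-3p of the same cluster. The pair farthest apart was miR-23b-3p and miR-27a-3p, at 0.78, and the nearest was miR-24-2-5p and miR-24-3p, at 0.087. Of 130 miRNAs outside the members with a mean of at least 100 CPM, those nearest to miR-27b-3p were miR-145a-3p (0.043), miR-29a-3p (0.045) and miR-378c (0.0655), and those nearest to miR-23b-3p were miR-224-5p (0.104), miR-425-5p (0.125) and miR-93-5p (0.131). For miR-27a-3p they were miR-1843b-5p (0.0687), miR-145a-3p (0.101) and miR-22-5p (0.124). For miR-24-3p they were miR-615-3p (0.0595), miR-674-3p (0.0903) and miR-125b-5p (0.092), and for miR-23a-3p miR-152-3p (0.149), miR-1839-5p (0.166) and miR-99b-5p (0.1697). These likenesses rest on 6 libraries, of which tofogliflozin replicate 2 stood apart.

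Arm use was then compared, as the 3p reads per 5p read of each hairpin. In mir-24-2 there were 18.3, 20.4 and 19.6 reads of miR-24-3p per read of miR-24-2-5p with tofogliflozin, against 18.9, 17.0 and 17.8 on the diet alone. In mir-24-1 the same miR-24-3p count stood at 177, 200.8 and 171 per read of miR-24-1-5p with tofogliflozin, against 196, 170.2 and 153 on the diet alone. Because that count pools both clusters, neither value is the arm use of 1 hairpin.

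The miR-27 hairpins had 3p reads in great excess, mir-27b more so than mir-27a in each of the 6 libraries. The part in that order of how 3p reads were split between the a and b copies, or of ligation and amplification, was not tested. mir-27a had 118, 48.8 and 124 reads of 3p per 5p with tofogliflozin, against 125, 154 and 106 on the diet alone. mir-27b had 341, 171 and 439.8 with tofogliflozin, against 362, 552 and 392 on the diet alone. Tofogliflozin replicate 2 was lowest in both hairpins, and the remaining mice overlapped.

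For the miR-23 hairpins, miR-23a-5p was near the limit of counting, with 6, 2 and 16 reads in the tofogliflozin libraries and 26, 11 and 16 reads in the diet-only libraries. mir-23a had 496, 726 and 373 reads of 3p per 5p with tofogliflozin, against 192, 352 and 229.5 on the diet alone, values that did not overlap but rest on those few reads. Over all ratios of 2 tested miRNAs 11.1% had groups that did not overlap. mir-23a was below the minimum of 50 counts set for the test. miR-23b-5p stood at 24.6, 16.6 and 37.9 CPM with tofogliflozin, against 34.5, 23.3 and 24.6 CPM on the diet alone. mir-23b had 54.1, 138 and 30.1 reads of 3p per 5p with tofogliflozin, against 30.2, 53.01 and 57.4 on the diet alone, with the outlying value again in tofogliflozin replicate 2.

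In limma, with log2 of the 5p over the 3p count, 0 of the 5 tested hairpins of the clusters passed, as did 0% of the 92 hairpins tested. The log2 ratio of 5p to 3p differed by 0.51 ± 0.38 (SE) in mir-27a and 0.54 ± 0.37 in mir-27b, by -0.43 ± 0.53 in mir-23b, and by -0.12 ± 0.20 in mir-24-2 and -0.08 ± 0.21 in mir-24-1, tofogliflozin minus diet only. For mir-24-2 and mir-24-1 the 3p count is the shared miR-24-3p count, so neither value is the arm use of a single hairpin. At an unadjusted p under 0.05 limma gave 1 of the 92 hairpins, none of these 5, and the smallest adjusted p was 0.944. Without tofogliflozin replicate 2 the difference was 0.07 in mir-27a, 0.14 in mir-27b and 0.16 in mir-23b.

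**Figure D5:**
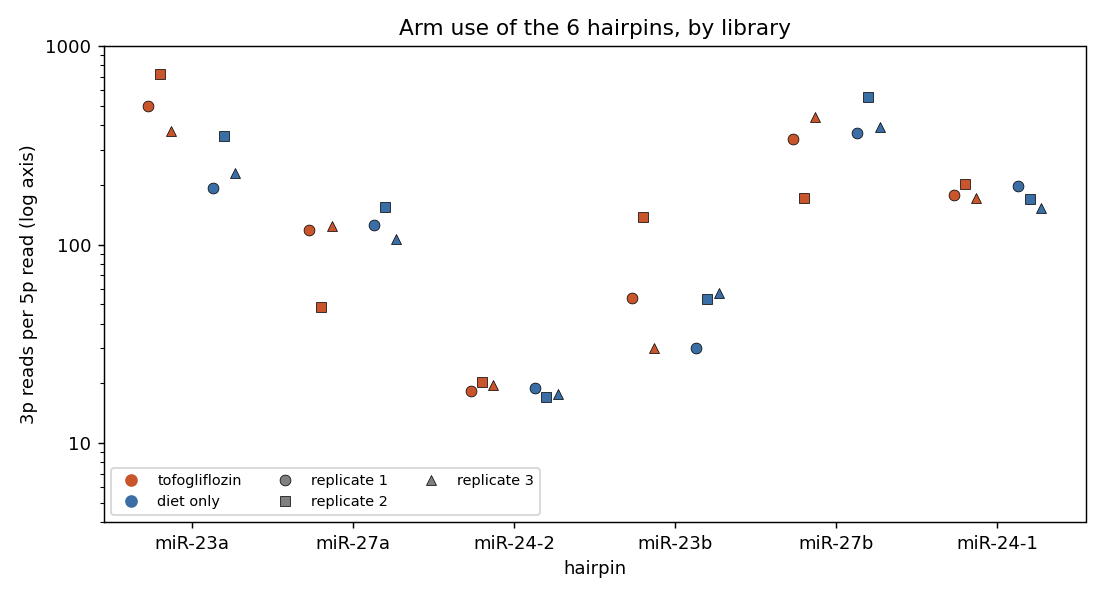
Reads of the 3p arm per read of the 5p arm in the 6 hairpins (log axis), 1 symbol per library, tofogliflozin left and diet only right in each hairpin. All values lie above 16, tofogliflozin replicate 2 is lowest in mir-27a and mir-27b and highest in mir-23b, and miR-24-3p counts in mir-24-2 and mir-24-1 are the same shared counts.

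The antisense miR-3074 names were close to the limit of counting. miR-3074-5p had 10 to 45 reads in tofogliflozin libraries and 29 to 55 in diet-only libraries, a log2 fold change of 0.0033 ± 0.44 (SE). miR-3074-1-3p had at most 1 read with tofogliflozin and at most 5 on the diet alone. miR-3074-2-3p had 0 reads in each library, which allows up to 0.174 to 0.452 CPM with tofogliflozin and 0.131 to 0.2101 CPM on the diet alone, for counting error only.

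Lists of related miRNAs were set beside the members. In the endothelial list, in which miR-126a-3p is the best known member, 0 of 5 were called by edgeR, 3 were above 0 and 2 below, and the median log2 fold change was 0.13, against -0.0052 over all tested miRNAs. That median was 0.029 without tofogliflozin replicate 2. The list summed to 24166 to 26539 CPM with tofogliflozin and 22471 to 26615 CPM on the diet alone. miR-126a-3p had a log2 fold change of -0.14 ± 0.14 (SE), miR-222-3p 0.83 ± 0.53, miR-221-3p 0.28 ± 0.21 and miR-139-5p 0.13 ± 0.16. miR-222-3p stood at 3573, 8153 and 1368 CPM in tofogliflozin replicates 1, 2 and 3, against 2356, 2214 and 2780 CPM on the diet alone, so its highest value was in the library that stood apart. Of the miRNAs that act on lipid handling beside miR-27, 0 of 12 tested were called by edgeR, with 6 on either side of 0 and a median of -0.05. Without tofogliflozin replicate 2, 10 of the 12 were below 0, with a median of -0.07. Its most abundant members were miR-10b-5p (0.01 ± 0.10), miR-21a-5p (-0.28 ± 0.22), miR-378a-3p (0.03 ± 0.10) and miR-30c-5p (0.20 ± 0.20), as log2 fold changes with SE.

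The kidney tubule list had 3 members above 0 and 3 below, with a median of 0.03 that was -0.0058 without tofogliflozin replicate 2. The smooth muscle and pericyte list had 3 above and 2 below, with a median of 0.17 that was 0.064 without that library. In the erythroid list miR-486-5p and miR-3107-5p had near-equal log2 fold changes (0.65 and 0.67), and that of miR-451a was 0.37. Mean levels of miR-486-5p and miR-3107-5p were 139 and 149 CPM with tofogliflozin and 88.2 and 94.0 CPM on the diet alone. Whether these names count the same reads was not tested. The 3 tested members of the erythroid list were above 0, with a median of 0.65 that was 0.23 without tofogliflozin replicate 2. The leukocyte list had 6 of 7 members below 0, with a median of -0.21 that was -0.53 without that library, and summed to 1332 to 1498 CPM with tofogliflozin and 1572 to 2809 CPM on the diet alone. The groups did not overlap in that sum, most of which was miR-146a-5p. It stood at 1266 ± 85.7 CPM with tofogliflozin and 1912 ± 624 CPM on the diet alone (SD, n = 3 each). miR-146a-5p was the 1 of 7 leukocyte list members whose groups did not overlap, against 12.0% of all tested miRNAs, so the sum describes miR-146a-5p more than the list. In each of these lists edgeR called 0 members with the filter on low counts. Without the filter edgeR called miR-204-5p of the tubule list (adjusted p = 0.0396), miR-146a-5p of the leukocyte list (adjusted p = 0.028), miR-222-3p of the endothelial list (adjusted p = 0.00022) and miR-122-5p of the liver and lipid handling lists (adjusted p = 0.00042). DESeq2 called miR-204-5p (adjusted p = 0.0161). Of the liver list miR-122-3p had 0 reads throughout, and miR-122-5p had a log2 fold change of 1.07 ± 0.65 (SE) that was -0.18 without tofogliflozin replicate 2. The part of leukocyte content in the values of the miR-23, miR-27 and miR-24 members was not tested.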

How the data were processed

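The authors deposited raw read counts, 1 table per library, with 2033 rows per table, each a pairing of a precursor with a mature miRNA. Per the submitters' processing notes, cutadapt 1.14 and mm10 were used. How reads were aligned and counted is not given in the sources used here. Per the labels' protocols, RNA came from a NucleoSpin miRNA kit and went into NEBNext small RNA libraries. Columns of other samples numbered 0.

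For each of 1900 mature names the largest precursor row per library was taken. Of 75 names with several rows, 47 had identical rows. Rows left out held 22.7% to 23.8% of the counts. Differences (tofogliflozin minus diet only) went through the quasi-likelihood F-test of edgeR 4.0.16 (R 4.3.3) with TMM factors, default filterByExpr (smallest count 10, total 15), Benjamini-Hochberg adjustment over 460 miRNAs, threshold 0.05, 95% intervals. SE is the absolute log2 fold change over the square root of F. Log2 CPM used a prior count of 2. The exact permutation tests were 2-sided. Ratios used a pseudocount of 1. Arm ratios were tested with limma 3.58.1 in the 92 hairpins whose weaker arm averaged 50 counts or more. DESeq2 1.42.0 was an alternative. The edgeR and limma fits were also run on simulated counts and the exact tests on made-up values, with outcomes not given here. No 2 libraries held the same counts.

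Named miRNAs were the 9 members, the other arms, miR-3074, the 3 nearest profiles of each 3p member and up to 4 of the most abundant members per list. List names miR-142a, miR-486a and miR-486b were matched to miR-142, miR-486 and miR-3107 in the files. The members are fixed by name, with no measured value in the rule, but this family and the lists were chosen with earlier results of these data known. Reads carried no molecular identifiers, so limits cover counting error only.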

Additional observations from a re-analysis of the deposited data

How the results depend on the processing

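With 3 mice per group, a group difference in 1 ratio cannot reach an exact p under 0.1, and low counts limit miR-23a-5p and miR-3074. The number of members called and of arm ratios called was 0 under every alternative run. Over all miRNAs, edgeR without a filter on low counts called 10 and DESeq2 called 2, miR-204-5p and miR-346-5p, none of them members (both are named after their values were seen). The cause of the changes below was not tested. The log2 fold change of miR-27a-5p, near 0, turned to 0.0077 with RLE size factors, 0.035 with library totals alone, 0.0056 with DESeq2, 0.035 with differing rows summed and 0.0034 with the smallest row. That of miR-3074-5p turned to -0.012 with upper quartile factors, -0.024 without the filter and -8.8e-06 with DESeq2. The other 110 fold changes under settings that keep every library kept their direction and stayed short of the threshold. With each library left out, log2 fold changes ran from -0.15 to 0.19 for miR-23a-3p, 0.0096 to 0.59 for miR-23b-3p, -0.69 to -0.20 for miR-27a-3p, -0.48 to 0.0041 for miR-27b-3p, -0.34 to 0.0097 for miR-24-3p, -0.43 to -0.08 for miR-24-2-5p, -0.44 to 0.0065 for miR-24-1-5p, -0.13 to 0.16 for miR-27a-5p, 0.13 to 0.33 for miR-27b-5p, -1.33 to -0.56 for miR-23a-5p, -0.39 to 0.19 for miR-23b-5p and -0.31 to 0.41 for miR-3074-5p. Arm differences ran from -0.93 to 0.16 for mir-23b and from -0.17 to 0.0073 for mir-24-1. Group differences in the a-to-b log2 ratio ran from -0.69 to 0.12 for the miR-23 guides, -0.26 to -0.15 for the miR-27 guides, -0.33 to -0.14 for the miR-27 5p arms and -0.12 to 0.013 for the miR-24 5p arms. Over 5 libraries the sign-flip test cannot reach 0.05, and the mean log2 ratios ran from -2.59 to -2.26 for miR-23, -1.50 to -1.43 for miR-27 3p and 3.22 to 3.27 for miR-24 5p. The within-cluster difference of miR-24-1-5p over miR-27b-3p ran from -0.016 to 0.11.

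The pairing of replicate numbers across groups was checked by correlating deviations from the group means, which gave r = 0.0027, -0.14 and -0.17, so the numbers were not taken as pairs. A replicate block gave 0 calls, and 10 of 460 miRNAs had an unadjusted p under 0.05, 0 of them members, and the miR-27a-3p to miR-27b-3p difference was -0.20 (exact paired permutation p = 0.25, the smallest that 3 pairs allow).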
